A study of Homo sapiens with 6 samples.

Results

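The miR-181 family was described here in small RNA libraries from exosomes, the small vesicles that cells release, of HCT116, a human colorectal cancer cell line. Members were taken by name, as each arm of miR-181a, miR-181b, miR-181c and miR-181d listed in the count tables. That gave 9 of 2575 mature miRNA entries, 4 on the 5p (guide) strand and 5 on the 3p (passenger) strand, and 8 of the 9 had a count in some library. Guide and passenger are used below only as names of the 5p and 3p arms. For miR-181c the counts did not bear the names out, with 26 on the 5p arm and 31 on the 3p arm. miR-181b-2-3p, a further passenger strand, had no entry in the count tables and was not analysed here. There were 3 libraries titled as exosomes of HCT116 cells treated for 6 h with ETBF, the enterotoxigenic form of the gut bacterium Bacteroides fragilis, at a multiplicity of infection of 500. The other 3 libraries were titled untreated, and their cells received bacterial medium without the bacterium. All cells were at passage 16 to 19. Groups follow the sample titles. The names of the files contradict the titles in 6 of 6 libraries, with ETBF and control exchanged. If the file names are right, each direction below is the reverse of the one written, while the sizes of log2 fold changes, their errors and the p-values stay the same.

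A miRNA recognises messenger RNAs mainly through its seed, bases 2 to 8 from the 5′ end, so that members of a seed family share predicted targets. The guide strand is the arm that is usually loaded into Argonaute, and the passenger strand of the same hairpin is usually degraded. miR-181a is known for tuning the sensitivity of the T cell receptor in developing lymphocytes. miR-181b is known for lowering NF-kappaB signalling in endothelium through importin-alpha3, and for repressing CYLD downstream of STAT3 in transformed epithelial cells.

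The 4 guides are shown because they share a seed and differ only in their later bases, which is what separates their counts. Sequences are RefSeq's on GRCh38.p14, written 5′ to 3′ with bases 2 to 8 in capitals.
miR-181a-5p: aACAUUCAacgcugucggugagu
miR-181b-5p: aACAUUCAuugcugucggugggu
miR-181c-5p: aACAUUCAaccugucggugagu
miR-181d-5p: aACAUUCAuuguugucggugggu
Counted from 1 at the 5′ end and read from miR-181a-5p to miR-181b-5p, the guides differ by A9U, C10U and A21G. miR-181d-5p differs from miR-181b-5p by C12U alone, and miR-181c-5p from miR-181a-5p by 1 edit, being 22 bases long where miR-181a-5p has 23. The split of reads between miR-181b-5p and miR-181d-5p, and between miR-181a-5p and miR-181c-5p, therefore rests on 1 base and is uncertain. Among all mature miRNAs in the sequence table, the only other with this seed was miR-4262, which had 0 counts in the 6 libraries.

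The passenger strands are shown because no pair of them shares a seed.
miR-181a-3p: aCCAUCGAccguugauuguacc
miR-181a-2-3p: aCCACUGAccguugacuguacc
miR-181b-3p: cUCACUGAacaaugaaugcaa
miR-181c-3p: aACCAUCGaccguugaguggac
miR-181d-3p: cCACCGGGggaugaaugucac
The miR-181a arms name a locus, since miR-181a-5p is made from hairpins on chromosomes 1 and 9 whose 3p arms differ. miR-181a-3p comes from MIR181A1 (chr1:198859044-198859153, minus strand) and miR-181a-2-3p from MIR181A2 (chr9:124692442-124692551, plus strand). MIR181B1 (chr1:198858873-198858982, minus strand) lies 61 bases from MIR181A1. miR-181b-5p is also made at chr9:124693725-124693747 (plus strand) from MIR181B2. MIR181C (chr19:13874699-13874808, plus strand) and MIR181D (chr19:13874875-13875011, plus strand) are 66 bases apart. In GENCODE release 29 the chromosome 1 pair lies in an intron of MIR181A1HG, a long non-coding RNA. The chromosome 9 pair lies in an intron of MIR181A2HG on its own strand, and in an intron of NR6A1 on the other strand. MIR181C and MIR181D lie in an intron of NANOS3.

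Libraries held 200207 to 417321 counts, so 3 counts correspond to 8.26 to 14.6 CPM, a count scaled to the TMM-adjusted library size. Library composition differed beyond the family: miR-7641 took 0.389% to 0.535% of the titled ETBF counts and 12.3% to 24.4% of the titled untreated counts. The value of miR-181a-5p with that entry, miR-6087 and miR-1246 left out is given below. Of 9 miRNAs listed as colonic epithelial, all had counts. Their summed level was 38015 to 43354 CPM in titled ETBF libraries and 45494 to 47136 CPM in titled untreated libraries. The difference was not shared by the whole list. Log2 fold changes were -0.31 for miR-203a and miR-192-5p, -0.29 for miR-194-5p and -0.17 for miR-141-3p. They were -0.06 to 0.02 for miR-200a-3p, miR-200b-3p, miR-200c-3p and miR-429. miR-215-5p was not tested, and 0 of the 8 tested passed an adjusted p under 0.05 (edgeR). Of 7 blood-cell miRNAs all had counts, 5 could be tested, and 0 of the 5 passed an adjusted p under 0.05 in the edgeR test used below, where 14.4% of all tested entries did. So few tested members say little at that share. The list covers blood cells in general and does not single out lymphocytes. Since miR-181a is also abundant in lymphocytes, the list's summed level is given here. It was 526 to 692 CPM in titled ETBF libraries and 667 to 727 CPM in titled untreated libraries. Its part in the miR-181 levels was not tested.

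The family was a minor constituent of the exosomal miRNAs. Summed over all arms it held 711, 519 and 756 counts in the libraries titled ETBF and 608, 949 and 875 in those titled untreated. That was 0.233% ± 0.0514 of all counts in the titled ETBF libraries and 0.286% ± 0.0254 in the titled untreated libraries (SD, n = 3). On the CPM scale the sum was 2387, 2334 and 2335 in the titled ETBF libraries and 2949, 2613 and 2794 in the titled untreated libraries. The groups did not overlap: each titled ETBF library lay below each titled untreated library. Without that scaling they did overlap, at 0.181% to 0.284% of all counts in titled ETBF libraries and 0.257% to 0.304% in titled untreated libraries. The mean difference in scaled CPM was -433, and no p is given for a sum over chosen members. In such samples, fewer vesicles of a kind and less of a miRNA per vesicle cannot be told apart.

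hsa-miR-181a-5p, the most abundant guide, stood at 1628, 1583 and 1482 CPM in the libraries titled ETBF, against 2066, 1793 and 1884 CPM in those titled untreated. These rest on 485, 352 and 480 counts in the titled ETBF libraries and 426, 651 and 590 in the titled untreated libraries. In scaled CPM the 3 titled ETBF libraries were all lower than the 3 titled untreated libraries. Without that scaling the groups overlapped. Titled ETBF replicate 1 held 485 of 250425 counts, a higher share than titled untreated replicate 2 with 651 of 368923. The means were 1565 ± 74.9 CPM in the titled ETBF libraries and 1914 ± 139 CPM in the titled untreated libraries (SD, n = 3). The fitted log2 fold change was -0.29 (SE 0.09), or 1.22-fold lower by the titles. It did not pass the threshold over all entries (edgeR quasi-likelihood F-test, Benjamini-Hochberg adjusted p = 0.0601). Without titled ETBF replicate 1 it did (-0.35, adjusted p = 0.0313; adjusted p 0.0313 to 0.387 over the alternatives tried). With miR-7641, miR-6087 and miR-1246 left out before scaling it was -0.24 (SE 0.10, adjusted p = 0.127). Scaled by library size only it was -0.34 (SE 0.21, edgeR adjusted p = 0.387).

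hsa-miR-181b-5p, the guide linked to NF-kappaB and CYLD, stood at 598, 553 and 679 CPM in the libraries titled ETBF, against 694, 625 and 712 CPM in those titled untreated. The groups overlapped, because titled ETBF replicate 3 lay above titled untreated replicate 2. The means were 610 ± 64.0 CPM in the titled ETBF libraries and 677 ± 45.8 CPM in the titled untreated libraries (SD, n = 3). Its fitted log2 fold change was -0.14 (SE 0.11, edgeR adjusted p = 0.426).

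miR-181d-5p, encoded beside miR-181c, stood at 94.0, 103 and 92.6 CPM in the libraries titled ETBF, against 102, 113 and 99.0 CPM in those titled untreated. The groups overlapped, and no library stood apart. Counts were 28, 23 and 30 in the titled ETBF libraries and 21, 41 and 31 in the titled untreated libraries. Its fitted log2 fold change was -0.13 (SE 0.19, edgeR adjusted p = 0.660).

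**Figure D1:**
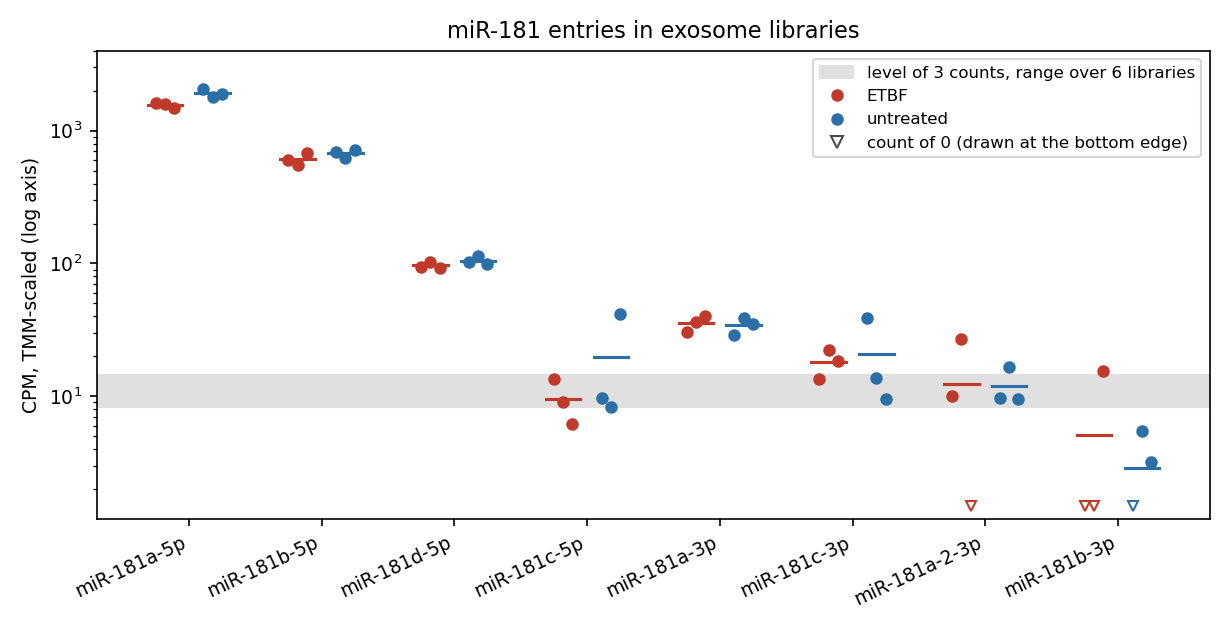
Level of each miR-181 entry with a count, in CPM on a log axis, by library (points, titled ETBF left of titled untreated) with the group mean (line, n = 3); the grey band is the level of 3 counts and open triangles are counts of 0. miR-181a-5p at 1482 to 1628 CPM in titled ETBF libraries and 1793 to 2066 CPM in titled untreated libraries is the most abundant, and the groups of the entries other than miR-181a-5p overlap.

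Those 3 guides were the members that passed the filter on low counts, and 0 of the 3 passed an adjusted p under 0.05, where 14.4% of all 195 tested entries did. DESeq2 and limma-voom also called 0 of the 3. At an unadjusted p under 0.05 there was 1 of 3 by edgeR, DESeq2 and limma-voom, against 33.8% of tested entries by edgeR. Groups of libraries did not overlap in scaled CPM for 1 of 3, against 39% of tested entries. All 3 log2 fold changes were negative, as were 51.8% of all those tested. Their median was -0.14, beside -0.03 over all tested entries. A miss of the threshold does not show that levels were equal. The sign was negative for all 3 guides in each of the 17 settings tried, the reported one included. These settings draw on the same libraries and are not independent. The one with entries as deposited repeats the reported fit, since there were no copies to sum.

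**Figure D2:**
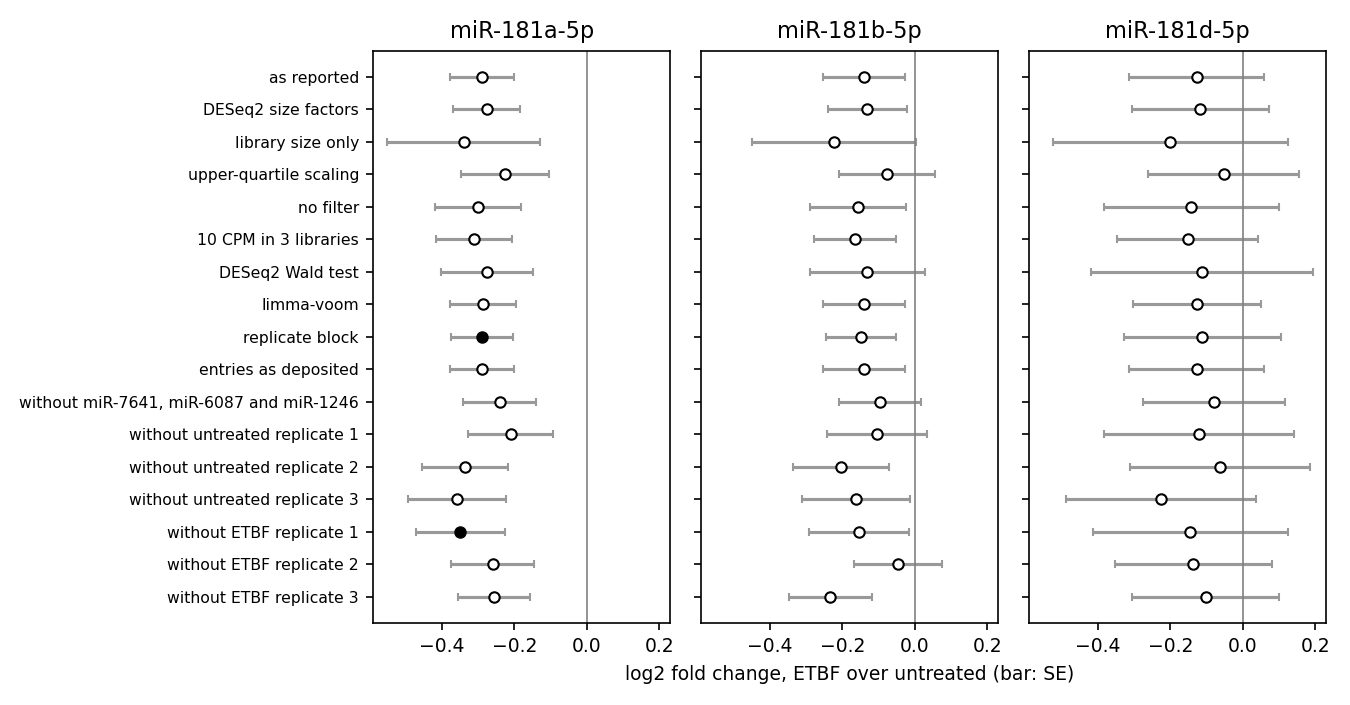
Log2 fold change (titled ETBF over titled untreated) of the 3 tested guides with its standard error, under the reported setting and each alternative; filled points have an adjusted p under 0.05. All points lie below 0, and miR-181a-5p is the only guide with filled points, 2 of 17.

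The order miR-181a-5p, miR-181b-5p, miR-181d-5p, miR-181c-5p, from high to low, was the same in each of the 6 libraries. miR-181a-5p ranked 44 of all entries by mean CPM, next to miR-25-3p and miR-26b-5p above and miR-186-5p and miR-532-5p below. Among these, miR-26b-5p had 1763 ± 58.3 CPM in titled ETBF libraries and 1882 ± 116 CPM in titled untreated libraries (SD, n = 3). That was within the spread of miR-181a-5p in the titled untreated group. It was above that spread in the titled ETBF group, where miR-181a-5p had 1565 ± 74.9 CPM. miR-181b-5p ranked 73, between miR-93-5p and miR-320a above and miR-381-3p and miR-769-5p below. miR-93-5p, at 655 ± 51.3 CPM in titled ETBF libraries and 656 ± 31.0 CPM in titled untreated libraries, does not differ from miR-181b-5p beyond these spreads. miR-181d-5p ranked 134. The 3 guides are of equal length, and counts were compared without a length correction.

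The shares of the same-seed guides in all guide counts were compared within each library, where no scaling enters. miR-181a-5p held 69.8%, 70.4% and 65.6% of guide counts in the libraries titled ETBF and 72.0%, 70.6% and 68.8% in those titled untreated. The widest exact 95% interval (Clopper-Pearson, counting error only) ran from 66.2% to 74.4%, in titled ETBF replicate 2. It takes each count as a separate read, and is too narrow if reads were counted at both loci of a guide. The means were 68.6% ± 2.63 in titled ETBF libraries and 70.5% ± 1.56 in titled untreated libraries (SD, n = 3, exact permutation test, two-sided, p = 0.4; 0.1 is the smallest p of this design, so no threshold of 0.05 could be passed). miR-181b-5p held 26.8% ± 2.90 in titled ETBF libraries and 24.9% ± 0.971 in titled untreated libraries (SD, n = 3). miR-181d-5p held 4.03% to 4.60% in titled ETBF libraries and 3.55% to 4.45% in titled untreated libraries.

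There were 2.72, 2.86 and 2.18 counts of miR-181a-5p for each count of miR-181b-5p in the libraries titled ETBF, and 2.98, 2.87 and 2.65 in those titled untreated. Titled ETBF replicate 3 had the lowest ratio, outside the range of the other 5 libraries. The mean log2 ratio of miR-181b-5p to miR-181a-5p, with 0.5 added to each count, was -1.36 ± 0.21 in titled ETBF libraries and -1.50 ± 0.09 in titled untreated libraries (SD, n = 3). The difference of 0.14 was within the spread of the libraries (exact permutation test, two-sided, p = 0.4, 0.4 adjusted over 3 measures of composition). Without titled ETBF replicate 3 it was 0.02. miR-181d-5p, which a single base separates from miR-181b-5p, held 13.6% to 18.7% of the miR-181b-5p count in titled ETBF libraries and 13.9% to 18.1% in titled untreated libraries.

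**Figure D3:**
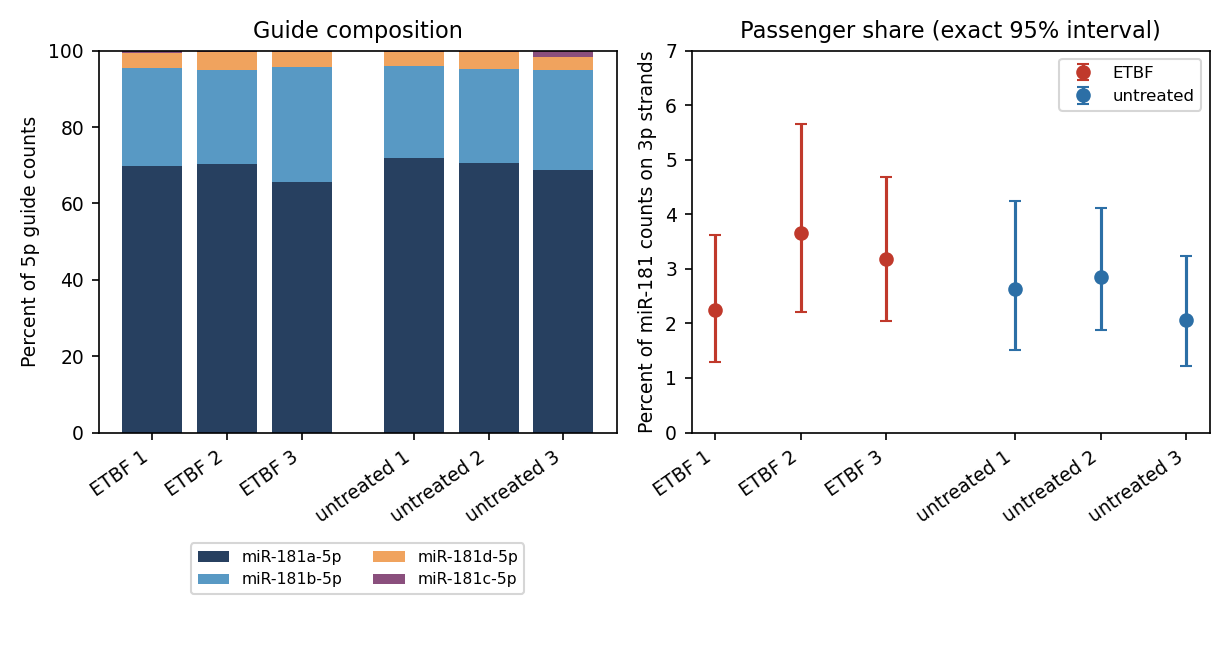
Left, percent of miR-181 5p guide counts in each guide, by library; right, percent of all miR-181 counts on 3p strands with the exact 95% interval (counting error only), titled ETBF libraries left of titled untreated. miR-181a-5p takes 65.6% to 72.0% of guide counts in each library, and the passenger intervals overlap between the groups.

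How reads with several genomic positions were counted bears on these shares. miR-199a-3p, with 2 loci, held 2.00 times the count of miR-199b-3p, with 1 locus and the same sequence, in each library, which is the ratio that counting a read at each place it matches would give. miR-181a-5p and miR-181b-5p each have 2 loci, and miR-181c-5p and miR-181d-5p have 1. Counts were odd in 2 of 6 libraries for miR-181a-5p and in 4 of 6 for miR-181b-5p, so not each of their reads can have been counted at both places. miR-199a-3p was also odd, in 1 of 6. An odd count needs only 1 read counted once, so it does not show how many reads were. With counts divided by the number of loci, miR-181d-5p held 8.11% ± 0.573 of guides in titled ETBF libraries and 7.40% ± 0.943 in titled untreated libraries, and miR-181a-5p held 65.5% ± 2.35 in titled ETBF libraries and 67.4% ± 1.89 in titled untreated libraries (SD, n = 3). The ratio of miR-181a-5p to miR-181b-5p is unchanged by this division, by construction, since both are divided by 2. It could still shift if the part of reads counted at both places differs between the 2 guides, which was not tested.

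miR-181c-5p was the scarcest guide. It held 4, 2 and 2 counts in the libraries titled ETBF and 2, 3 and 13 in those titled untreated. Titled untreated replicate 3 held more than the other 5 libraries, each of which lay near the level of 3 counts. Its sum was 8 counts in titled ETBF libraries and 18 in titled untreated libraries, or 5 without titled untreated replicate 3. The entry was not among those tested. Without the filter the fitted log2 fold change was -1.08 (SE 0.70, edgeR over 717 entries, adjusted p = 0.546).

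Passenger strands held 2.25%, 3.66% and 3.17% of all miR-181 counts in the libraries titled ETBF and 2.63%, 2.85% and 2.06% in those titled untreated. The groups overlapped, with means of 3.03% ± 0.717 in titled ETBF libraries and 2.51% ± 0.408 in titled untreated libraries (SD, n = 3, exact permutation test, two-sided, p = 0.4, 0.4 adjusted over 3 measures). These shares leave out miR-181b-2-3p, which had no entry. None of the 5 passenger entries passed the filter on low counts. Dividing counts by the number of loci gave 5.63% ± 1.29 in titled ETBF libraries and 4.69% ± 0.758 in titled untreated libraries (SD, n = 3).

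miR-181a-3p, the arm of the chromosome 1 hairpin, was the most counted passenger, with 9, 8 and 13 counts in the libraries titled ETBF and 6, 14 and 11 in those titled untreated. miR-181a-2-3p, from chromosome 9, held 3, 6 and 0 in titled ETBF libraries and 2, 6 and 3 in titled untreated libraries. miR-181a-3p thus made up 76.9% of the miR-181a passenger counts in titled ETBF libraries (30 of 39, exact 95% interval 60.7% to 88.9%) and 73.8% in titled untreated libraries (31 of 42, 58.0% to 86.1%). The intervals overlap almost wholly. Because the guide is the same at both loci, these arms are the part of the miR-181a signal that the table assigns to a locus, and they say nothing of how stable each arm is.

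The arms of miR-181c were unlike those of the other members, and its hairpin is shown beside that of miR-181a-1, with both mature arms in capitals.
MIR181A1: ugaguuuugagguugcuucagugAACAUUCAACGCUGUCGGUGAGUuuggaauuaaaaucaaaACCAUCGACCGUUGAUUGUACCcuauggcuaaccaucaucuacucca
MIR181C: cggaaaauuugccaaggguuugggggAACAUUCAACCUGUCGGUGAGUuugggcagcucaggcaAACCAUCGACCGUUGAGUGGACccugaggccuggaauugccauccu
miR-181c-3p held 4, 5 and 6 counts in the libraries titled ETBF and 8, 5 and 3 in those titled untreated. Its arm took 65.2% of miR-181c counts in titled ETBF libraries (15 of 23, exact 95% interval 42.7% to 83.6%) and 47.1% in titled untreated libraries (16 of 34, 29.8% to 64.9%). Titled untreated replicate 3, with 13 counts of the 5p arm, sets the lower value: without it the titled untreated share was 72.2% (13 of 18, 46.5% to 90.3%). At this depth no difference between the groups was detectable.

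Over all 6 libraries the 3p arm held 2.64% of miR-181a counts (81 of 3065, exact 95% interval 2.10% to 3.27%) and 0.713% of miR-181b counts (8 of 1122, 0.308% to 1.40%). For miR-181c it was 54.4% (31 of 57, 40.7% to 67.6%). miR-181d-3p had 0 of 174 counts, which allows a share of up to 1.72% taken as 3 counts of the total, or 2.10% by the upper bound of the exact interval. The interval of miR-181c lay above those of miR-181a and miR-181b. These pooled shares count reads, not samples, and the 5p counts of miR-181a and miR-181b may be raised by their second locus. For miR-181a both 3p arms were summed. The miR-181b share leaves out miR-181b-2-3p, which had no entry, and so may be too low. For 141 other miRNAs with both arms in the tables and at least 50 counts in all, the less counted arm held a median of 0.780% (quartiles 0.0593% and 10.04%). In 7 of those 141 it held at least 40%, as in miR-181c over all 6 libraries. That likeness rests on titled untreated replicate 3. Without it the 3p arm held 68.3% of miR-181c counts (28 of 41, exact 95% interval 51.9% to 81.9%). The less counted arm was then under 40% and the total under 50 counts.

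**Figure D4:**
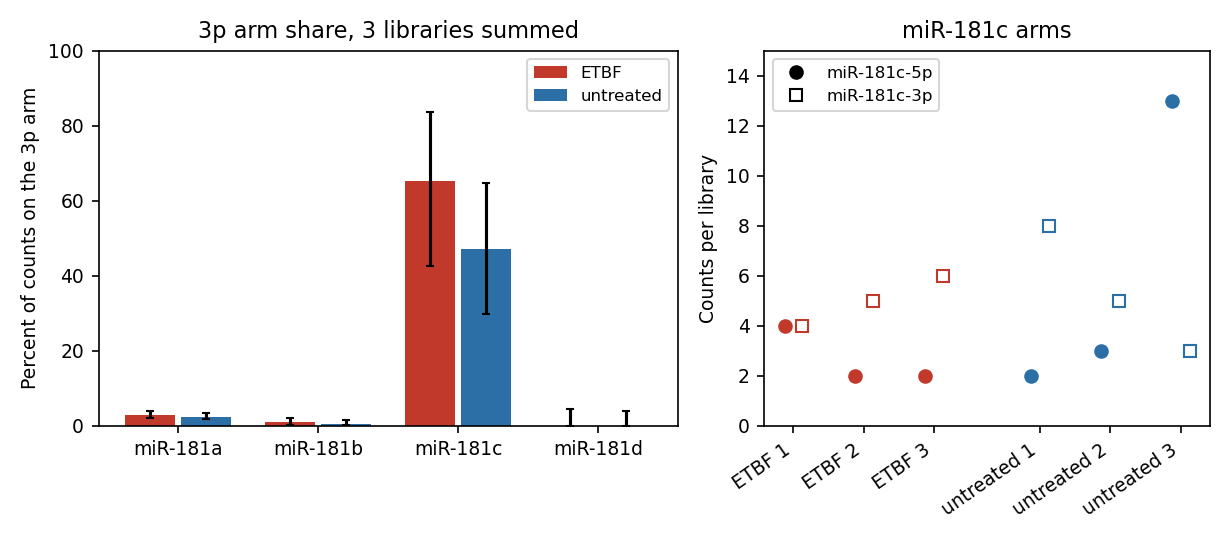
Left, percent of counts on the 3p arm for each miRNA, summed over the 3 libraries of a group, with the exact 95% interval (counting error only); right, counts of the miR-181c arms in each library. The 3p share of miR-181c is 65.2% in titled ETBF libraries and 47.1% in titled untreated libraries. That of the others is below 3%, with miR-181b-2-3p left out for lack of an entry. In titled untreated replicate 3 lie 13 counts of miR-181c-5p.

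Levels of the guides across the 6 libraries were only loosely alike. Pearson's r of log2 CPM was 0.51 between miR-181a-5p and miR-181b-5p, 0.44 between miR-181a-5p and miR-181d-5p, and -0.22 between miR-181b-5p and miR-181d-5p (n = 6 libraries, which share depth and scaling). Outside the family, the tested entries most like miR-181a-5p were miR-30d-5p (r = 0.94), miR-1246 (0.93) and miR-7641 (0.92). miR-7641 is the entry whose shares of the libraries are given above. Most like miR-181b-5p were miR-146a-5p (r = 0.98), miR-374a-5p (0.97) and miR-497-5p (0.93). For each guide these are the highest r among 192 tested entries. Over 6 libraries such maxima can be high without a link, so no relation is drawn from them. The entry of miR-146a-5p had a fitted log2 fold change of -0.13 (SE 0.11, edgeR adjusted p = 0.450).

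A list of 16 miRNAs for STAT3 and NF-kappaB circuits was chosen here, and the link of each to miR-181b was not tested. Of these 16, 15 could be tested for a difference between the groups. In the libraries titled ETBF 3 of them were higher and 0 lower, and 12 did not pass. In all tested entries 10.8% were higher and 3.59% lower. The 3 were miR-9-3p, miR-132-3p and miR-10a-5p (edgeR, adjusted p = 0.00705, 0.0432 and 0.0412). miR-9-3p, the passenger arm of a miRNA enriched in neurons, held 27, 15 and 54 counts in titled ETBF libraries and 3, 6 and 0 in titled untreated libraries. miR-132-3p, which CREB induces, held 14, 30 and 34 counts in titled ETBF libraries and 6, 13 and 11 in titled untreated libraries. These 2 exceeded the filter's level in 3 titled ETBF libraries and in 0 and 1 titled untreated libraries, so they were tested only because they are high in the titled ETBF group, and the list's count supports nothing by itself. miR-10a-5p exceeded it in all 6 libraries and had a fitted log2 fold change of 0.40 (SE 0.11). miR-21-5p, the STAT3-linked oncogenic miRNA named beside miR-181b in that circuit, had 88451 ± 3308 CPM in titled ETBF libraries and 90484 ± 1488 CPM in titled untreated libraries (SD, n = 3, log2 fold change -0.03, SE 0.12, adjusted p = 0.851).

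The letters GGAG, a short motif linked to loading of miRNAs into exosomes of human lymphocytes, were looked for in the mature sequences, on the miRNA strand alone. They were in 0 of the 9 miR-181 members, in 10 of the 166 other tested entries with a sequence (6.02%), and in 15.7% of 2370 mature miRNAs of the table.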

How the data were processed

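Small RNA libraries were made from 100 ng of total RNA of exosomes collected by centrifugation and taken up in Trizol, with an Illumina TruSeq RNA kit, per the labels' protocols. Trimmomatic, FastQC and featureCounts were used on build GRCh37.p5, per the submitters' processing notes. Not given in the sources used here are their versions, the aligner, the miRNA annotation and how reads with several positions were treated. Deposited files hold raw whole-number counts per mature miRNA, 1 file per library. No name occurred more than once, so there were no copies to sum. The labels do not name separate cultures, and the spread that p-values measure here may be technical. Replicate libraries differed by far more than sampling noise (chi-square over degrees of freedom 10.04 to 104).

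Entries were kept by filterByExpr (minimum count 10), which left 195 of 2575. They were scaled by TMM and tested with edgeR 4.0.16 (quasi-likelihood F-test, two-sided, Benjamini-Hochberg over all tested entries, threshold 0.05) in R 4.3.3. Standard errors (SE) were derived by dividing the size of the log2 fold change by the root of F. Shares have exact Clopper-Pearson 95% intervals and composition was compared by exact permutation. Intervals and floors of 3 counts cover counting error only. Alternatives used DESeq2 1.42.0 and limma 3.58.1, other scalings, filters and left-out libraries. Scripts were tested on simulated data. The sequences of all 9 members were matched by name to RefSeq (GRCh38.p14), and the deposited tables give no coordinates. Members, lists and tests were chosen with earlier results of these data known. Entries named are all members, same-seed entries, the colonic epithelial list and the circuit list's calls. Also named are the 3 most alike by Pearson's r (prior count 2) and the 2 nearest in rank on each side. miR-21-5p, miR-7641 and miR-199a/b-3p were added after their values were seen.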

Additional observations from a re-analysis of the deposited data

How the results depend on the processing

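Across 16 alternatives, miR-181a-5p ran from -0.36 to -0.21 on the log2 scale (adjusted p 0.0313 to 0.387), miR-181b-5p from -0.23 to -0.05 and miR-181d-5p from -0.22 to -0.05. The alternative with entries as deposited repeats the reported fit. Leaving out single libraries gave -0.36 to -0.21 for miR-181a-5p, -0.23 to -0.05 for miR-181b-5p and -0.22 to -0.06 for miR-181d-5p. miR-181a-5p passed the threshold in 2 alternatives: without titled ETBF replicate 1 (-0.35, adjusted p = 0.0313) and with the replicate block (-0.29, adjusted p = 0.0441). The same replicate numbers do not show pairing: deviations of same-numbered libraries correlated at 0.18, 0.10 and 0.05, and not every library correlated best with its own number. The replicate block gave 38 calls over all entries, against 28 without it. By construction it leaves the differences in composition unchanged. These were 0.14 in the log2 ratio, -1.88 points in the miR-181a-5p share and 0.52 points in the passenger share. Calls over all entries were 51 with no filter (39 higher, 12 lower) and 17 to 59 when single libraries were left out. They were 59 without titled ETBF replicate 1, and 17 each without titled ETBF replicate 3 or titled untreated replicate 3. The cause was not tested. Without miR-7641, miR-6087 and miR-1246, miR-181b-5p had -0.10 and miR-181d-5p -0.08. The split of 21 higher and 7 lower became 36 and 6 with upper-quartile scaling and 30 and 4 without miR-7641, miR-6087 and miR-1246. With single libraries left out, the log2 ratio differed by 0.02 to 0.21, the miR-181a-5p share by -2.79 to -0.38 points, the passenger share by 0.20 to 0.91 points and the summed level by -519 to -352 CPM. Dividing counts by the number of loci changed the summed difference to -225 CPM, since by construction it divides the 2 abundant guides by 2. Depth limits miR-181c-5p and the scarcer passenger strands, which lie near 3 counts per library.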
